A study of Mus musculus with 6 samples.

Results

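The genes Meis1, Meis2, Meis3, Pknox1, Pbx2 and Pbx3 encode homeodomain proteins of the TALE class, whose homeodomain carries a loop extension. They were chosen by name as the MEIS, PREP and PBX partners of HOXA9, and they are 6 of the 23337 genes in the count table, of which 12174 passed the filter on low counts. The study sequenced polyadenylated RNA of neonatal mouse leukemia, MLL-rearranged according to the series title, in 2 groups. The ccl5 group held 3 libraries of leukemia treated with CCL5, a chemokine. The control group held 3 libraries of the same kind of leukemia, labelled as control conditions. The sources used here do not give the MLL fusion partner, nor the dose, the duration, the strain, the age of the animals, or whether libraries came from separate animals, so p-values measure only the spread between these libraries.

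MEIS and PBX proteins bind DNA side by side with HOX proteins and raise the selectivity of HOXA9 for its sites. MEIS and PREP proteins compete for PBX partners, and binding to them keeps PBX in the nucleus. Meis1 and Pbx3 are known targets of MLL fusion proteins in leukemia, where Meis1 speeds the transformation that Hoxa9 starts, and in normal blood formation Meis1 is expressed mainly in stem and progenitor cells.

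The libraries did not fall together by group. Levels are given as CPM, read counts scaled to library size with TMM factors that even out differences in composition. By these the libraries formed 3 closely alike pairs: ccl5 replicates 1 and 3, ccl5 replicate 2 with control replicate 3, and control replicates 1 and 2. Within these pairs the median absolute difference over genes that passed the filter was 0.14, 0.11 and 0.10 log2 CPM. Between any other 2 libraries it lay between 0.44 and 0.66. The closely alike pairs were not plain resamplings of a single library, since their counts differed by more than sampling noise. Over genes with at least 20 reads in the 2 libraries together, the chi-square per degree of freedom was 7.27, 4.48 and 3.55. Whether the libraries of a pair came from the same animal or the same RNA was not tested, and these values cannot tell. By the labels ccl5 replicate 1 was a tertiary transplant, ccl5 replicates 2 and 3 were primary transplants, as was control replicate 3, and none is given for control replicates 1 and 2. The source names neo30ccl5 (ccl5 replicate 1), neo10ccl5 (ccl5 replicates 2 and 3) and neo10ctrl (control replicate 3) are not explained there. Control replicates 1 and 2 have the source names neo_control and negative, so each control library carries a different source name. Whether a library carries the label of another was not tested, and an exchange of labels would change the meaning of each value of ccl5 over control given here. Y-linked genes had 0, 5103 and 0 reads in ccl5 replicates 1 to 3, against 6210, 7777 and 6286 reads in control replicates 1 to 3. Xist, the X-inactivation gene, had 29408, 40 and 25725 reads in the ccl5 libraries, against 4, 3 and 77 reads in the control libraries. The Xist and Y-linked reads were thus those of female cells in ccl5 replicates 1 and 3 and of male cells in the other libraries. The leukocyte gene Ptprc was high in every library, from 522 to 783 CPM, while the B-cell genes Pax5, Ebf1, Rag1 and Ms4a1 had at most 3 reads in any library. Of the same list Cd79b was present throughout, from 10.5 to 15.9 CPM, and Cd79a and Igll1 reached 17 and 11 reads.

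Summed monocyte or macrophage markers, 13 genes, measured 7768, 1196 and 8508 CPM in ccl5 replicates 1 to 3, against 1135, 1185 and 1238 CPM in control replicates 1 to 3, with a higher fold change in 13 of 13. Most of this sum was Ctss and Cd68, and single markers differed between the controls. C1qb measured 130, 69.7 and 110.2 CPM in the ccl5 libraries, against 1.27, 1.07 and 67.5 CPM in the control libraries, and C1qa, C1qc and Fcgr1 were likewise low in control replicates 1 and 2 alone. The 10 neutrophil or promyelocyte markers summed to 810, 15726 and 782 CPM in the ccl5 libraries, against 2923, 2979 and 15494 CPM in the control libraries, with fold changes higher in 4 and lower in 6. Mmp8 of this list differed in order from the sum, at 464.5, 249.7 and 533 CPM in the ccl5 libraries, against 44.1, 35.6 and 286 CPM in the control libraries. No marker of these lists was at 0 in all libraries. The monocyte or macrophage sum was highest in the libraries where Pbx3, given below, was highest. The neutrophil or promyelocyte sum was highest where Meis1 and Pknox1 were. Pbx3 also differed where the monocyte or macrophage sum was similar. It measured 13.7 CPM in ccl5 replicate 2 (sum 1196 CPM) and 7.48 CPM in control replicate 1 (sum 1135 CPM). What part these sums have in the levels of the TALE genes was not tested. In bulk samples fewer cells of a type and less RNA per cell cannot be told apart.

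No member passed the test of ccl5 against control in edgeR's quasi-likelihood fit, which called 0% of all tested genes (0 of 12174) at a Benjamini-Hochberg adjusted p under 0.05. Of the 6 members 5 passed the filter, and 1 of them, Pbx3, had an unadjusted p under 0.05, a level reached by 8.99% of tested genes in the higher and 4.67% in the lower direction. In 0 of the 5 did the ccl5 and control libraries lie fully apart, which they did for 15.8% of all tested genes. DESeq2 called 1 of the 5, Pbx3, and 1.64% of the genes it tested. Without ccl5 replicate 2 edgeR called 2 of the 5, Pbx3 and Pbx2, and 26.2% of genes. That fit sets 2 ccl5 libraries without Y-linked reads against 3 controls with them, so treatment and this difference cannot be told apart in it. Without control replicate 3 it called 0 of the 5 and 1.88% of genes. Leaving out both of these libraries, it called 4 of the 5, all but Meis3, and 70.7% of genes, with the same confounding. Each group is then a closely alike pair, so the spread in that fit is only that within pairs. The limma-voom fit, which gives ccl5 replicate 2 and control replicate 3 low weights, called the same 4 and 66.5% of genes. With those weights it rests mostly on the other libraries, so the same confounding and the spread within pairs apply to it.

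Meis1, the MEIS gene most tied to leukemia, lies on chromosome 11 (mm10, 18880428 to 19018969, minus strand). It measured 24.9, 62.9 and 21.2 CPM in ccl5 replicates 1 to 3, against 35.6, 34.4 and 63.1 CPM in control replicates 1 to 3. The highest levels thus stood in ccl5 replicate 2 and control replicate 3, and the lowest in the other ccl5 libraries. Meis1 averaged 36.3 ± 23.1 CPM in the ccl5 group and 44.4 ± 16.3 CPM in the control group (SD over 3 libraries each), with a log2 fold change of -0.29 (SE 0.49, adjusted p = 0.812). The ratio of ccl5 replicate 2 to control replicate 3 was 0.996 (95% exact interval 0.915 to 1.08), whereas that of ccl5 replicate 1 to control replicate 1 was 0.701 (0.611 to 0.802). These intervals compare single libraries, not the conditions.

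Pknox1, which encodes the PREP protein that binds PBX in place of MEIS, lies on chromosome 17 (31564773 to 31607693, plus strand). It followed the same order as Meis1, with 21.7, 47.1 and 18.7 CPM in the ccl5 libraries, against 31.6, 30.9 and 46.6 CPM in the control libraries. Its log2 fold change was -0.32 (SE 0.40, adjusted p = 0.742). Per kilobase of exon the ratio of Meis1 to Pknox1 stayed between 1.44 and 1.76 in all 6 libraries, so Meis1 was the higher of these PBX-binding genes in each.

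Meis3, a MEIS gene whose part in leukemia is little described, lies on chromosome 7 (16175380 to 16186503, plus strand). It was low throughout, at 3.28, 0.550 and 3.19 CPM in ccl5 replicates 1 to 3, against 4.50, 3.94 and 0.330 CPM in control replicates 1 to 3. Its lowest levels, 9 and 6 reads, stood in ccl5 replicate 2 and control replicate 3, the libraries with the most Meis1. The log2 fold change was -0.33 (SE 1.03, adjusted p = 0.897), and its sign turned without ccl5 replicate 2 (0.15) and without control replicate 1 (0.12).

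Meis2, the remaining MEIS gene, lies on chromosome 2 (115861264 to 116065058, minus strand). It had 0, 0 and 0 reads in the ccl5 libraries, against 1, 0 and 1 in the control libraries. At these depths 3 reads correspond to between 0.160 and 0.273 CPM, so Meis2 was not detectable above that level in any library and gets no fold change.

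The bases before the start sites of Meis1 and Meis3 are shown because these genes of one family stood in opposite order across the library pairs. Both are RefSeq promoter sequences of build GRCm38.p6, 250 bases long, ending at the base before the annotated start, which lay 0 bases from the start in the deposited table for Meis1 and 15 bases from it for Meis3. Positions are chr11:19018970-19019219 on the minus strand for Meis1 and chr7:16175145-16175394 on the plus strand for Meis3.
Meis1: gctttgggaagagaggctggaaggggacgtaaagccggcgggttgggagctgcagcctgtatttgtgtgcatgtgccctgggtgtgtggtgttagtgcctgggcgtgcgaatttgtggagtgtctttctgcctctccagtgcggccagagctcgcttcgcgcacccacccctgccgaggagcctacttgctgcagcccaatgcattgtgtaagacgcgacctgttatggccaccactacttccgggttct
Meis3: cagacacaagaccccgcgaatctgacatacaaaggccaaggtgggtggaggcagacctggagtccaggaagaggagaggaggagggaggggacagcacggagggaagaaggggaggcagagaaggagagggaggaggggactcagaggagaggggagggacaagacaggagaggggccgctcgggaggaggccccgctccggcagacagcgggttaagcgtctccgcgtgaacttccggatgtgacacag
The motifs searched on both strands were TGATNNAT for a paired HOX and PBX site, TGACAG for MEIS and TGACGTCA for a cyclic AMP response element, and matches would stand in capitals. None of them is in either window, and the windows of Meis2 and Pbx2, the other members in the RefSeq table, hold none as well. The annotated starts of Meis2 and Pbx2 lay 439 and 212 bases from the starts in the deposited table, so these windows may not stand directly before those starts. Of all 32851 promoter windows of this length 7.68% hold the first, 15.9% the second and 1.55% the third. Pbx3 and Pknox1 were not among the entries.

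**Figure D1:**
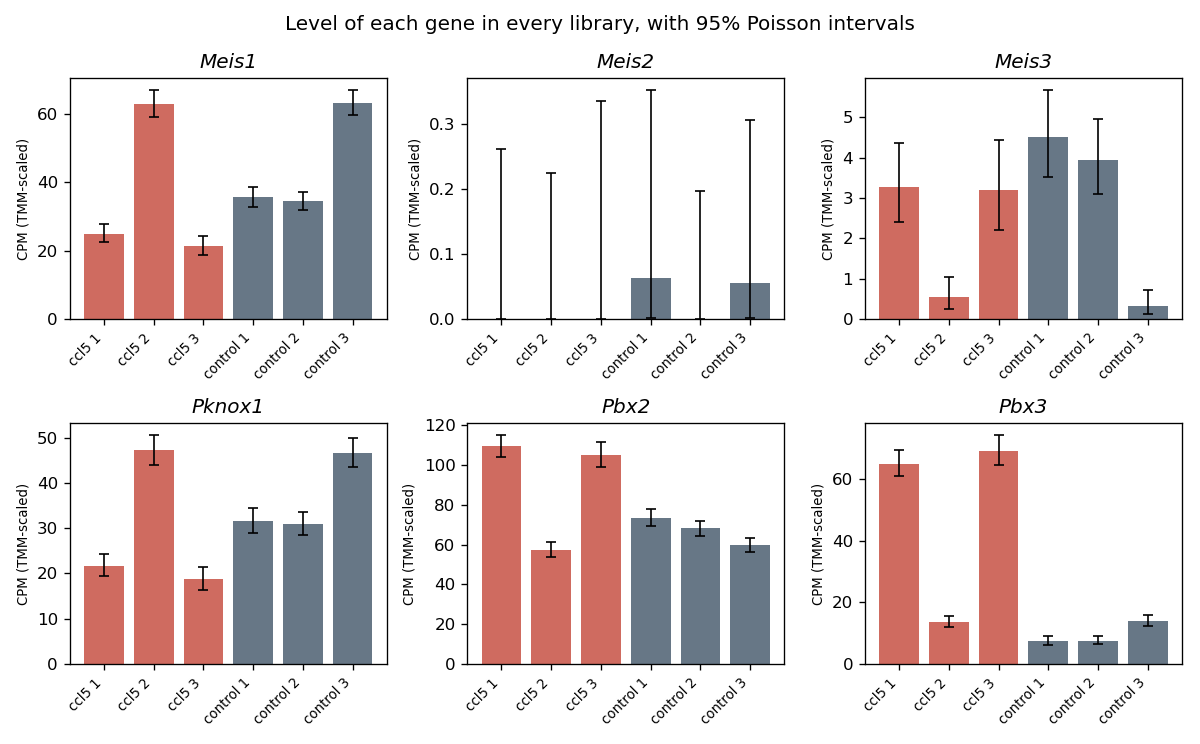
TMM-scaled CPM of each of the 6 genes in every library (red, ccl5; grey, control), with 95% exact Poisson intervals for counting error and a separate axis per gene. Meis1 and Pknox1 are highest in ccl5 replicate 2 and control replicate 3, Meis3 is lowest there, Pbx3 is highest in ccl5 replicates 1 and 3, and Meis2 has at most 1 read in any library.

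Pbx3, the PBX gene that acts with Hoxa9 and Meis1 in MLL-rearranged leukemia, lies on chromosome 2 (34171909 to 34372036, minus strand). It measured 65.03, 13.7 and 69.3 CPM in ccl5 replicates 1 to 3, against 7.48, 7.62 and 14.0 CPM in control replicates 1 to 3. The high values belonged to ccl5 replicates 1 and 3, the libraries with no Y-linked reads and with the highest monocyte or macrophage sums, and the groups overlapped because ccl5 replicate 2 lay just under control replicate 3. Pbx3 averaged 49.3 ± 30.9 CPM in the ccl5 group and 9.69 ± 3.71 CPM in the control group (SD over 3 libraries each). The log2 fold change of 2.35 (SE 0.66) did not pass edgeR's test (adjusted p = 0.365). DESeq2 called it (2.35, adjusted p = 0.0354), and so did edgeR without ccl5 replicate 2 (2.79, adjusted p = 0.00686), a fit that called 26.2% of the genes it tested.

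Between libraries of different pairs Pbx3 differed by more than counting error in the 3 ratios given next. The ratio of ccl5 replicate 1 to control replicate 1 was 8.69 (95% exact interval 7.17 to 10.6), that of ccl5 replicate 1 to control replicate 3 was 4.65 (4.05 to 5.37), and that of ccl5 replicate 2 to control replicate 1 was 1.84 (1.46 to 2.31). Between ccl5 replicate 2 and control replicate 3 it was 0.984 (0.818 to 1.18). Where Y-linked reads were present, which left 1 ccl5 library and 3 controls, the log2 fold change was 0.50 (SE 0.49), and with primary transplant libraries only, 2 ccl5 against 1 control, it was 1.55 (SE 1.19).

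Pbx2, a broadly expressed PBX gene, lies on chromosome 17 (34592471 to 34597341, plus strand). It varied least of the 5, with its highest level 1.91 times its lowest, against 9.26 times for Pbx3 and 13.6 times for Meis3. It measured 109.5, 57.4 and 105.2 CPM in the ccl5 libraries, against 73.4, 68.1 and 59.6 CPM in the control libraries. Again ccl5 replicates 1 and 3 were highest, while ccl5 replicate 2 was the lowest library of all. The log2 fold change was 0.44 (SE 0.28, adjusted p = 0.493). It was 0.20 when libraries were scaled by total counts alone, a scaling that moved the median of all genes by -0.16, and -0.23 where Y-linked reads were present. Without ccl5 replicate 2 it was 0.68 and passed edgeR's test (adjusted p = 0.0218).

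**Figure D2:**
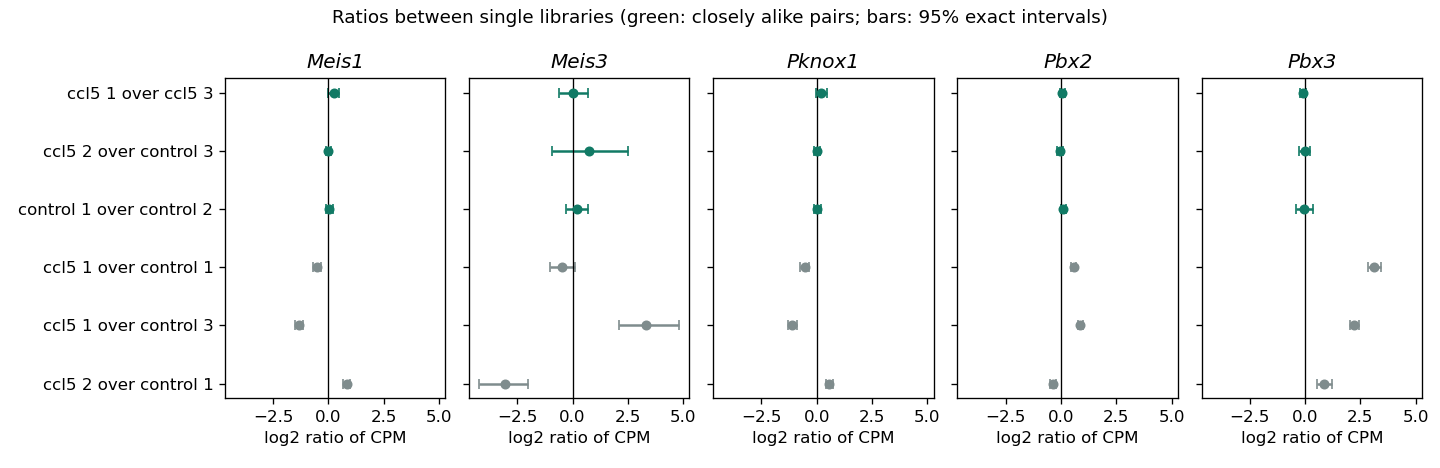
Log2 ratio of CPM between single libraries for the 5 detected genes, with 95% exact intervals for counting error; green, the 3 closely alike pairs; grey, 3 of the other pairs. Every green interval includes 0, and Pbx3 is displaced furthest in ccl5 replicate 1 over control replicate 1, at 3.12.

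Per kilobase of exon, Pbx2 gave the largest share of the summed level of the 6 genes in every library, at 48.7%, 37.0% and 47.8% in ccl5 replicates 1 to 3, against 53.2%, 52.1% and 37.9% in control replicates 1 to 3. The gene in second place differed. It was Pbx3 in ccl5 replicates 1 and 3, with 33.9% and 36.8%, and Meis1 in the other 4 libraries, with 33.0% in ccl5 replicate 2 and 21.0%, 21.4% and 32.7% in control replicates 1 to 3. The summed level was 80.2, 55.4 and 78.7 CPM per kilobase in the ccl5 libraries, against 49.3, 46.7 and 56.1 in the control libraries.

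The ratio of Meis1 to Pbx3, each per kilobase, was 0.267, 3.18 and 0.213 in ccl5 replicates 1 to 3, against 3.31, 3.14 and 3.14 in control replicates 1 to 3. It was thus nearly equal in the 4 libraries with Y-linked reads, although the level of Meis1 differed between them, and Meis1 was below Pbx3 in ccl5 replicates 1 and 3 alone. The ratio of Pbx3 to Pbx2 took 3 levels, at 0.695, 0.280 and 0.771 in the ccl5 libraries, against 0.119, 0.131 and 0.274 in the control libraries. Over tested genes Pbx2 stood above 77.5% of them in mean level per kilobase, Pbx3 above 55.8%, Meis1 above 54.3%, Pknox1 above 40.9% and Meis3 above 13.5%.

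**Figure D3:**
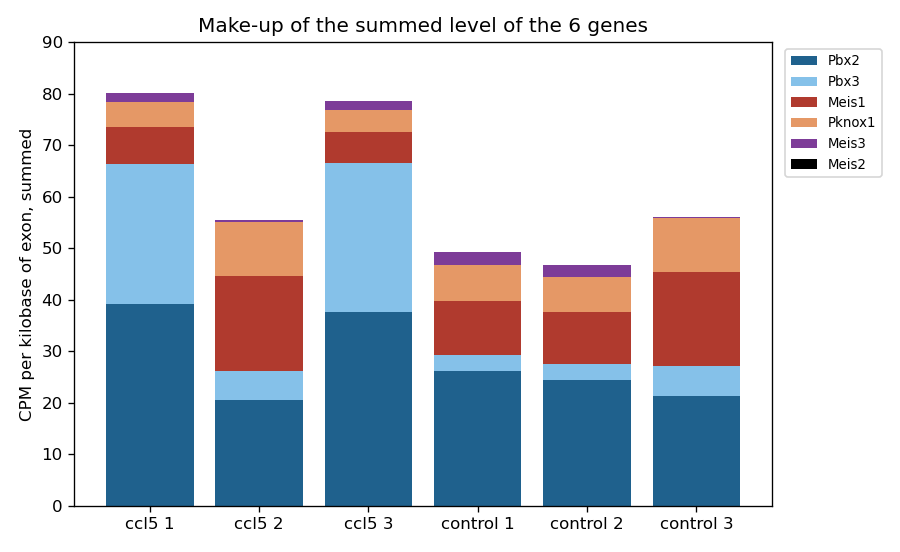
Summed level of the 6 genes in every library in CPM per kilobase of exon, stacked by gene, with ccl5 libraries left of control libraries. Pbx2 is the largest part in each, and the Pbx3 part is widest in ccl5 replicates 1 and 3, at 27.2 and 28.9 CPM per kilobase.

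**Figure D4:**
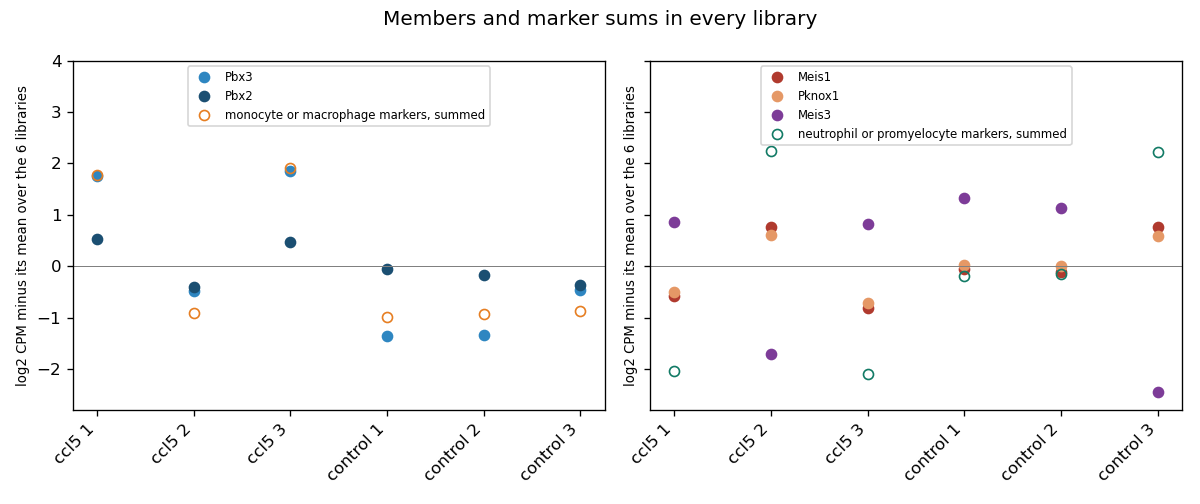
Log2 CPM of the detected genes and of the summed marker lists, each minus its own mean over the 6 libraries. Pbx3 and the monocyte or macrophage sum are highest in ccl5 replicates 1 and 3, and Meis1, Pknox1 and the neutrophil or promyelocyte sum are highest in ccl5 replicate 2 and control replicate 3.

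The genes whose pattern over the 6 libraries lay nearest to each member were found by the mean absolute difference in log2 CPM after centring each gene on its own mean, among 10248 candidates. With 3 pairs of libraries such likeness rests on few distinct levels. For Meis1 these were Gins1 of a DNA replication complex (0.021), Arhgap11a (0.024), and Cby1 (0.043). Gins1 measured 7.48, 18.8 and 6.28 CPM in the ccl5 libraries, against 10.97, 10.4 and 18.3 CPM in the control libraries. For Pknox1 they were Klraq1 (0.019), the syntaxin gene Stx2 (0.023) and Brms1l (0.027).

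Nearest to Pbx3 were Lgals3bp, which encodes a secreted galectin-binding glycoprotein (0.053), Rab3il1 (0.089) and Hpgds, a prostaglandin D synthase (0.090). Lgals3bp measured 71.9, 15.2 and 67.3 CPM in the ccl5 libraries, against 8.37, 8.10 and 14.9 CPM in the control libraries. For Pbx2 they were Tcf25 (0.018), Spns1 (0.031) and Nfkbib, an inhibitor of NF-kB (0.033), and for Meis3 they were Samd11 (0.11), Pid1 (0.13) and H2-Q6 (0.14), an MHC class I gene whose reads may be shared with near-identical copies. Among the members, Meis1 and Pknox1 lay 0.11 apart by this measure, and any other 2 tested members lay between 0.74 and 1.74 apart.

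Of the 11 HOXA genes, whose proteins bind DNA with these partners, 9 were tested and 0 were called. Their fold changes were lower in 8 and higher in 1, with a median log2 fold change of -0.34, against -0.01 over all tested genes. The ccl5 and control libraries lay fully apart in 2, both lower, as did 7.49% of tested genes in that direction. With libraries scaled by total counts alone, 9 of the 9 were lower, since Hoxa5, at 0.04 with TMM, stood at -0.09. Hoxa9 measured 90.7, 101 and 81.9 CPM in the ccl5 libraries, against 192, 178 and 108 CPM in the control libraries (log2 fold change -0.80, SE 0.25, adjusted p = 0.365). The log2 fold change of Hoxa10 was -0.57 (SE 0.26), and that of Hoxa7 was -0.43 (SE 0.27). Per kilobase Hoxa9 stood above Meis1 in every library, with a ratio of Meis1 to Hoxa9 of 0.182, 0.409 and 0.171 in the ccl5 libraries, against 0.122, 0.128 and 0.385 in the control libraries.

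Of 12 other TALE homeobox genes 5 were tested, with 3 higher, 2 lower and 0 called (median log2 fold change 0.66). Tgif1, a corepressor, measured 95.4, 14.3 and 104.3 CPM in the ccl5 libraries, against 41.8, 36.9 and 16.2 CPM in the control libraries (1.17, SE 0.76). The groups lay fully apart for Tgif2, its relative, at a log2 fold change of -0.87 (SE 0.38), and for Pbx4, a PBX gene best known from testis, at 0.66 (SE 0.29). In the higher direction 8.27% of tested genes lay so. Irx1, Irx4 and Irx6 had 0 reads in all libraries.

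Of 18 genes described as HOXA9 or MEIS1 targets 16 were tested, with 6 higher, 10 lower and 0 called (median log2 fold change -0.60). The 3 with the smallest p were all higher. Igf1, a growth factor, measured 330, 36.2 and 362 CPM in the ccl5 libraries, against 21.8, 22.0 and 43.1 CPM in the control libraries, and so had the high ccl5 replicates 1 and 3 that Pbx3 had. For Sox4, a transcription factor, the log2 fold change was 1.72 (SE 0.49), and for Syk, a tyrosine kinase gene, 1.54 (SE 0.45). Flt3, a receptor tyrosine kinase gene, was below the filter, with 148, 2 and 77 reads in the ccl5 libraries, against 0, 1 and 6 reads in the control libraries.

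Of 10 MLL complex genes and regulators of Meis1 or PBX all were tested, with 7 higher, 3 lower and 0 called (median log2 fold change 0.21), or 6 higher and 4 lower when scaled by total counts alone. For Mllt3, an MLL fusion partner, the log2 fold change was 1.03 (SE 0.40), and for Dot1l, a histone methyltransferase, 0.80 (SE 0.48). Kmt2a, which encodes MLL itself and stands in the table under an older symbol, measured 167, 94.0 and 164 CPM in the ccl5 libraries, against 115, 122 and 96.7 CPM in the control libraries (0.35, SE 0.26). Men1, which encodes the menin that tethers MLL, had a log2 fold change of 0.19 (SE 0.24).

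**Figure D5:**
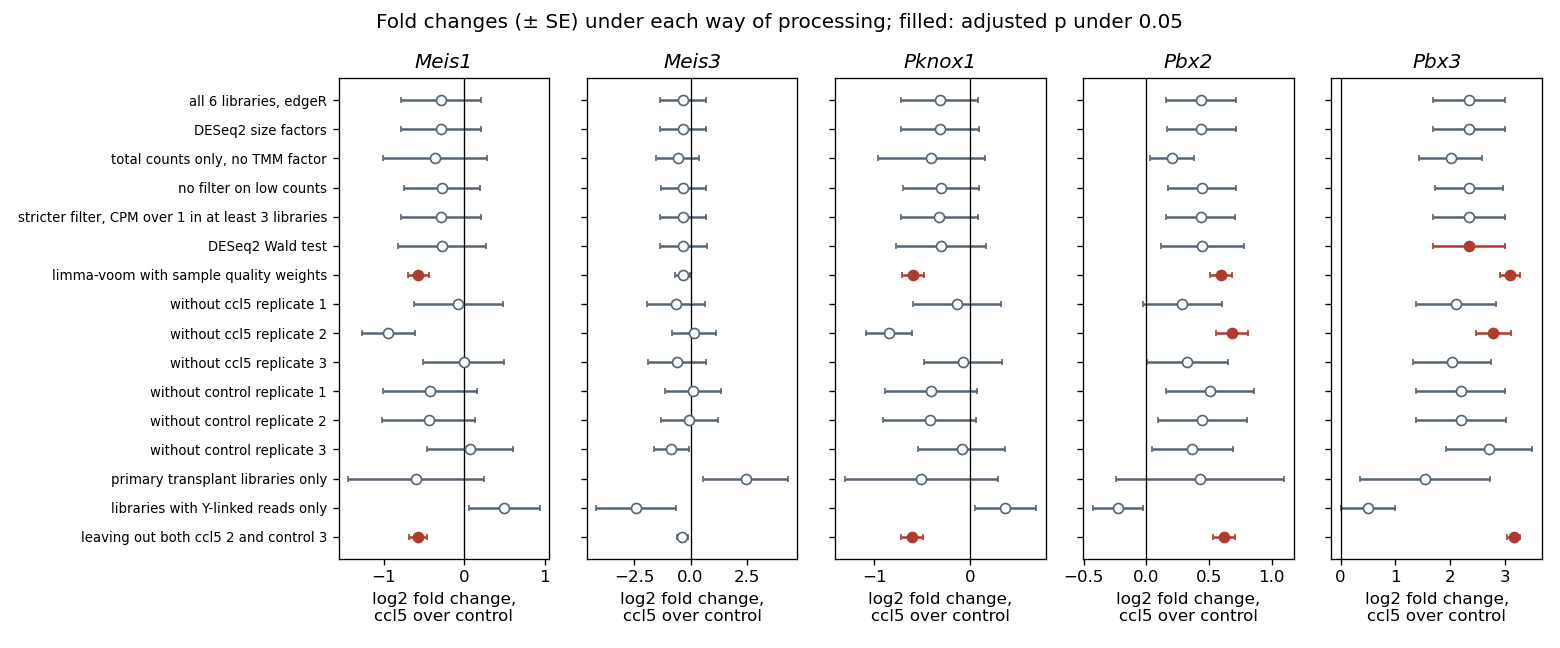
Log2 fold change of ccl5 over control for the 5 tested genes with all 6 libraries and under each alternative (points, bars ± SE; filled red, adjusted p under 0.05; a separate axis per gene). Pbx3 lies above 0 in every fit, from 0.50 to 3.17, while the sign of each of the others turned in at least 1 fit.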

How the data were processed

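Polyadenylated RNA of 6 mouse leukemia samples was sequenced, and the deposited table held raw read counts per gene from featureCounts 1.5.1 (primary alignments, UCSC mm10 genes), per the file headers. No strand option was set there. Trimmomatic, Bowtie, TopHat and DESeq2 are named per the submitters' processing notes, without a stated role.

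Columns were matched to samples by the letter that ends each title. Counts were scaled by TMM and given as CPM. Genes were filtered with filterByExpr (minimum count 10), leaving 12174 of 18580 genes with a count, and tested with edgeR 4.0.16 (quasi-likelihood F test, two-sided, Benjamini-Hochberg over all genes tested, threshold 0.05). The SE of a log2 fold change is its size divided by the square root of F. Levels of different genes are given as CPM per kilobase, using the exon length in the deposited table. The test was tried on simulated data with known folds. Alternatives used DESeq2 1.42.0, limma 3.58.1, other scalings and filters, and fewer libraries.

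The 6 genes, the gene lists and the alternatives were chosen with earlier results of these data known. Genes named from a list are the 3 with the smallest p, plus Hoxa9, Flt3, Kmt2a and Men1, and the 3 genes most like each tested member. Promoter sequences are RefSeq's, build GRCm38.p6. Total counts were between 13421100 and 18445095 per library. Intervals cover counting error only.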

Additional observations from a re-analysis of the deposited data

How the results depend on the processing

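Pbx3 kept its direction in all 15 alternatives (0.50 to 3.17) and Pbx2, Pknox1, Meis1 and Meis3 in 14, 14, 13 and 12 of 15. With limma-voom and sample quality weights, 8097 genes (66.5%) were called, with 5 of 9 HOXA genes, 5 of 5 other TALE genes, 14 of 16 targets and 6 of 10 MLL complex genes or regulators. Its weights were 0.0676 for ccl5 replicate 2 and 0.125 for control replicate 3, against 2.22 to 4.54 for the others. It called Meis1 (-0.57), Pknox1 (-0.60), Pbx2 (0.59) and Pbx3 (3.09). Leaving out both ccl5 replicate 2 and control replicate 3, chosen after seeing the data, called 8797 genes (70.7%), with 4 of 9, 6 of 6, 16 of 17 and 7 of 10 tested genes of those lists, and Meis1 (-0.58), Pknox1 (-0.60), Pbx2 (0.62) and Pbx3 (3.17). That fit, like the one without ccl5 replicate 2, sets ccl5 libraries without Y-linked reads against controls with them, so treatment and this difference cannot be told apart. With both libraries left out, each group is a closely alike pair, counted as separate replicates. The spread in that fit is thus only the small spread within pairs, which does not measure how far unlike libraries of a condition differ. By its weights the limma-voom fit rests mostly on the same libraries, so both limits hold for it too. DESeq2 called 199 genes, 2 targets among them, and Pbx3 (2.35). Where Y-linked reads were present the sign turned for Meis1 (0.50), Pknox1 (0.37) and Pbx2 (-0.23), and with primary transplant libraries only for Meis3 (2.44). Each of these last 2 fits has a group of 1 library, assumed to vary like the others. Leaving out 1 library gave 0 to 3299 genes called (3299 without ccl5 replicate 2, 237 without control replicate 3), 0 to 1 HOXA genes, 0 to 2 other TALE genes, 0 to 9 targets and 0 to 3 MLL complex genes or regulators. The highest of these counts came without ccl5 replicate 2, where 9, 6, 17 and 10 genes of the lists were tested and 26.2% of all genes were called. Over these fits the log2 fold change ranged from -0.94 to 0.07 for Meis1 (0.068 without control replicate 3), -0.85 to 0.15 for Meis3, -0.84 to -0.07 for Pknox1, 0.29 to 0.68 for Pbx2 and 2.03 to 2.79 for Pbx3. The cause of these changes was not tested. A threshold of 0.1 called 0 genes. Meis2 had too few reads for any value. No paired analysis was possible because the titles number the control libraries and give the ccl5 libraries letters only.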

Other observations

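Some of the other genes that act with these proteins stood in the order of Meis1, and they are named here after their values were seen. Psip1, which encodes a chromatin protein that links menin and MLL to DNA, measured 24.1, 57.8 and 20.8 CPM in ccl5 replicates 1 to 3, against 33.7, 34.1 and 55.3 CPM in control replicates 1 to 3. Pbxip1, whose protein binds PBX and inhibits its activity, measured 45.2, 86.2 and 34.3 CPM in the ccl5 libraries, against 52.0, 50.5 and 87.0 CPM in the control libraries. Both were thus highest in ccl5 replicate 2 and control replicate 3 and lowest in ccl5 replicates 1 and 3. Myb, a target list gene, measured 64.5, 628 and 51.1 CPM in the ccl5 libraries, against 313, 329 and 624 CPM in the control libraries, in the same order. Other genes of these lists did not share it, such as Kmt2a and Dot1l, which were highest in ccl5 replicates 1 and 3. Dot1l measured 230, 72.4 and 231 CPM in the ccl5 libraries, against 122, 114 and 70.8 CPM in the control libraries. How many of all tested genes stand in the order of Meis1 was not counted.

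Hoxa2 and Hoxa3, neighbouring genes of the HOXA cluster, stood in the order of Meis3, and they too are named after their values were seen. Hoxa3 measured 22.3, 7.82 and 21.8 CPM in ccl5 replicates 1 to 3, against 27.4, 25.4 and 9.57 CPM in control replicates 1 to 3. Hoxa2 measured 3.92, 1.65 and 3.91 CPM in the ccl5 libraries, against 4.50, 4.21 and 1.65 CPM in the control libraries. Both were lowest in ccl5 replicate 2 and control replicate 3, where Meis3 was lowest as well. The cluster as a whole did not share this order. Hoxa5 measured 10.2, 17.5 and 10.1 CPM in the ccl5 libraries, against 9.89, 9.92 and 16.9 CPM in the control libraries. Hoxa6 was likewise highest in ccl5 replicate 2 and control replicate 3. How many of all tested genes stand in either order was not counted.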
